A study of Arabidopsis thaliana with 17 samples.

Results

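The genes described here are 10 regulators of growth in darkness in Arabidopsis thaliana, followed in etiolated hypocotyls over the first 24 h after cutting. They were chosen by name for their place in phytochrome signalling, with earlier results of these data known: the phytochromes PHYA and PHYB, the transcription factors PIF1, PIF3, PIF4, PIF5 and PIF7, the PIF inhibitor HFR1, the bZIP factor HY5 and the ubiquitin ligase COP1. They are 10 of the 28642 genes in the table, and all 10 were among the 19656 genes tested, those whose RPKM reached 1 in 2 or more libraries. RPKM is a read count scaled to the length of the gene model and to the mapped reads of the library.

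The study follows gene expression while callus forms at wounds. Hypocotyls of dark-grown seedlings on MS-0 plates were cut sharply and stayed without light on plates of the same medium until RNA was taken. The 17 RNA-seq libraries comprised 3 each at 0, 1, 3, 6 and 12 h and 2 at 24 h, so darkness and medium were shared by every group, and the hours since cutting were what differed. The genotype, ecotype and age of the seedlings were not given in the sources used here. Uncut hypocotyls kept for the same times were not analysed here, so the effects of cutting, of the time on the plate and of the hour of sampling cannot be told apart.

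In the dark, phytochromes are made in an inactive form, and PIF proteins accumulate in the nucleus, bind G-box DNA, elongate the hypocotyl and hold back chlorophyll synthesis. The COP1 ligase, with SPA proteins, meanwhile sends the light-response factors HY5 and HFR1 to degradation. Light converts phytochrome to its active form, which removes PIFs and restrains COP1, so that HY5 accumulates and growth slows. Much of this control acts on protein stability, and only transcript levels were measured here.

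Mapped reads, inferred from the steps between low RPKM values, ranged from 7717255 to 7872179 in 14 libraries. The 24 h libraries were deeper, with 11760741 and 11736568, and replicate 1 of 0 h was deepest, with 20740957. At those depths 3 reads on a gene model of 1 kb were worth 0.145 to 0.389 RPKM. Across the libraries PIF7 rested on 5 to 59 reads and PHYA on 735 to 4824. Some libraries stood apart from others of their time point. Replicate 2 at 0 h was high in HY5 and in the B-box gene BBX24, at 114.5 RPKM against 64.9 and 57.5, and replicate 3 at 0 h was high in HFR1. The endodermal marker CASP1 was lowest in the library numbered 3 at 0, 1, 6 and 12 h. Its values there were 8.63 RPKM against 104.2 and 84.5 at 0 h, and 5.89 RPKM against 49.6 and 40.1 at 1 h. They were 1.65 RPKM against 1.79 and 9.11 at 6 h, and 17.1 RPKM against 31.3 and 46.2 at 12 h. At 3 h replicate 1 was lowest, at 2.55 RPKM against 14.9 and 3.73. The growth gene PRE1, the PIF-related UNE10 and the apex marker STM were likewise lowest in the library numbered 3 at 0 h and 1 h. Replicate 1 at 12 h held 96.2 RPKM of RBCS1A, a photosynthesis gene of green tissue, against 2.48 and 3.36 in the other 12 h libraries.

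Of the 4 epidermal markers, only PDF1 was at 0 in any library, in 1 library at 3 h. The sum of the 4 was 777.9 to 895.2 RPKM at 0 h and fell to 70.3 to 86.5 RPKM at 6 h. It stood at 188.3 to 196.2 RPKM at 24 h. CER6, a wax synthesis gene, carried most of that sum, with a mean of 693.6 RPKM at 0 h, and the members differed. The mean of ATML1 was 7.57 RPKM at 0 h, 1.70 RPKM at 6 h and 1.15 RPKM at 24 h, and that of PDF1 was 2.55 RPKM at 0 h and 2.73 RPKM at 12 h. Phloem markers stayed between 44.6 and 75.0 RPKM in all libraries, and xylem markers went from 185.9 to 194.6 RPKM at 0 h to 63.9 to 74.1 RPKM at 24 h. Endodermal markers summed to 23.5 to 124.7 RPKM at 0 h, to 12.98 to 19.9 RPKM at 6 h and to 132.2 to 147.2 RPKM at 24 h. CASP1 carried the high sum at 24 h, with means of 65.8, 4.18 and 123.7 RPKM at 0, 6 and 24 h. SCR, the other marker, had means of 18.2, 11.6 and 16.1 RPKM at those times. Markers of shoot apex summed to at most 3.06 RPKM, those of root hair and root cap to at most 1.61 RPKM, and those of seed storage to at most 9.47 RPKM, at 3 h. Markers of light-grown green tissue summed to 4.49 to 13.6 RPKM at 0 h and 2.04 to 4.41 RPKM at 6 h. They reached 13.8 to 192.8 RPKM at 12 h and 15.9 to 16.5 RPKM at 24 h. Of these markers, RBCS1A had means of 2.01 and 2.32 RPKM at 0 and 24 h, and LHCB1.3 of 6.07 and 10.97 RPKM. In whole hypocotyl pieces, fewer cells of a type and less RNA per cell cannot be told apart, and the part of these marker changes in the results below was not tested.

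Most genes in the table moved after cutting, and the members are read against that. One hour after cutting, 72.9% of tested genes differed from 0 h, 18.2% higher and 54.7% lower, with a median change of all genes of -0.36 on the log2(RPKM + 1) scale. Of the 10 members, 6 fell at 1 h and 0 rose, with a median of -0.91. With the libraries centred on their median, PHYB and PIF7 were also called at 1 h, both higher. A call is an adjusted p under 0.05 from limma, with Benjamini-Hochberg adjustment over all tested genes. Unless another fit is named, log2 changes are on the log2(RPKM + 1) scale, which understates fold changes of genes at low RPKM.

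Later comparisons with 0 h showed members on both sides. At 3 h, 2 members rose and 5 fell, where 67% of all genes were called, 27.6% higher and 39.3% lower. At 6 h, 3 rose and 5 fell, beside 67.3% of all genes, 30.2% higher and 37.1% lower. At 12 h, 3 rose and 4 fell, beside 62.3%, 34.4% higher and 27.8% lower, and at 24 h, 2 rose and 4 fell, beside 59.4%, 36.2% higher and 23.2% lower. The shares of members called thus lay near those of all genes, and all 5 comparisons use the same 0 h libraries. Tested over the whole course, 9 of the 10 members changed, as did 93.2% of all genes, and the exception was HY5 with an adjusted p of 0.0526 in limma's F test.

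**Figure D1:**
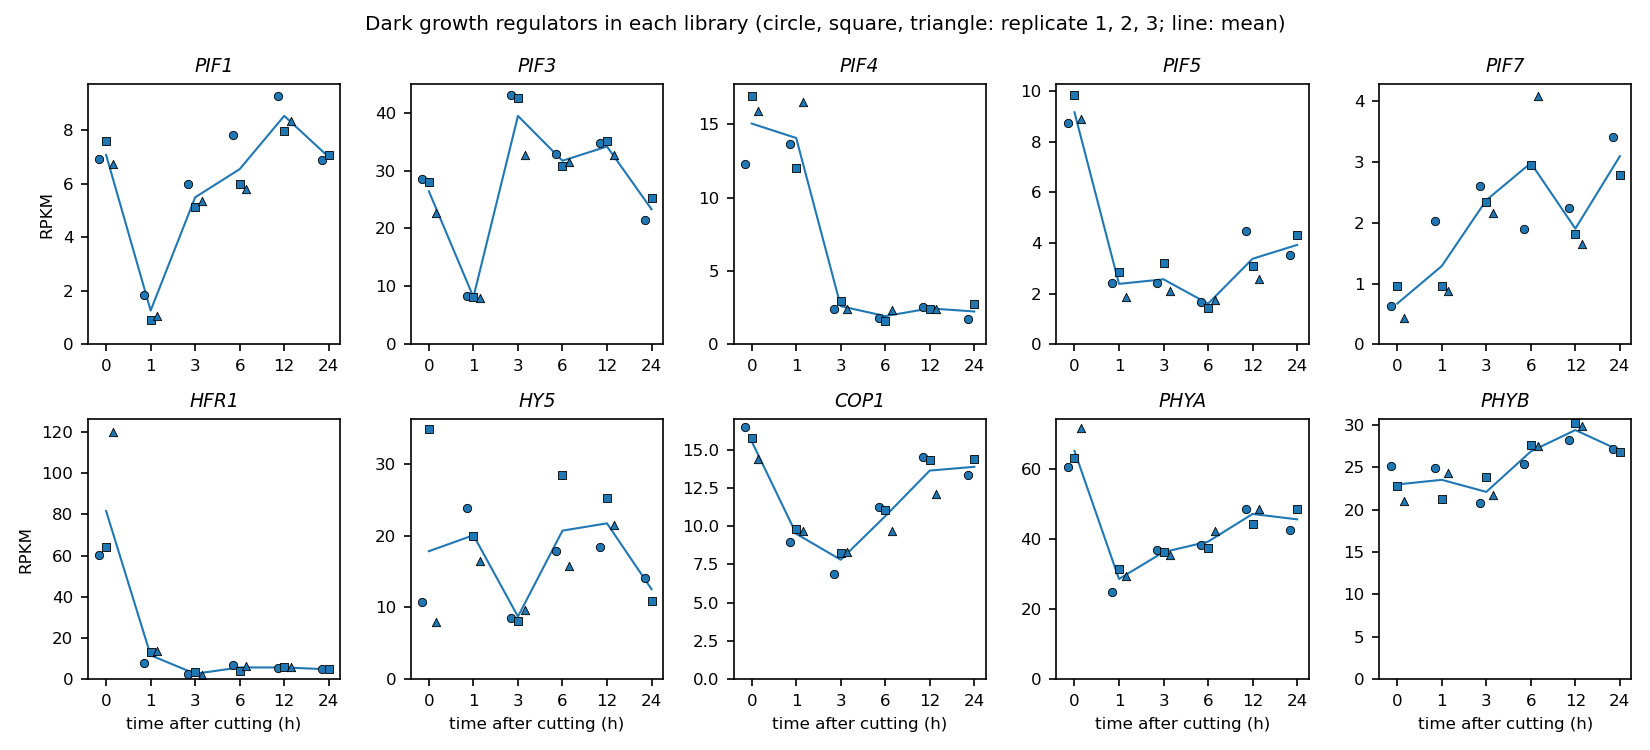
RPKM of each of the 10 genes (vertical axis, from 0) in the 17 libraries, ordered by hours after cutting on an axis of even steps. Symbols are replicates and the line joins time point means: PIF1 and PIF3 dip at 1 h, PIF4 falls between 1 h and 3 h, HFR1 falls at 1 h and again at 3 h, and PIF7 rises.

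**Figure D2:**
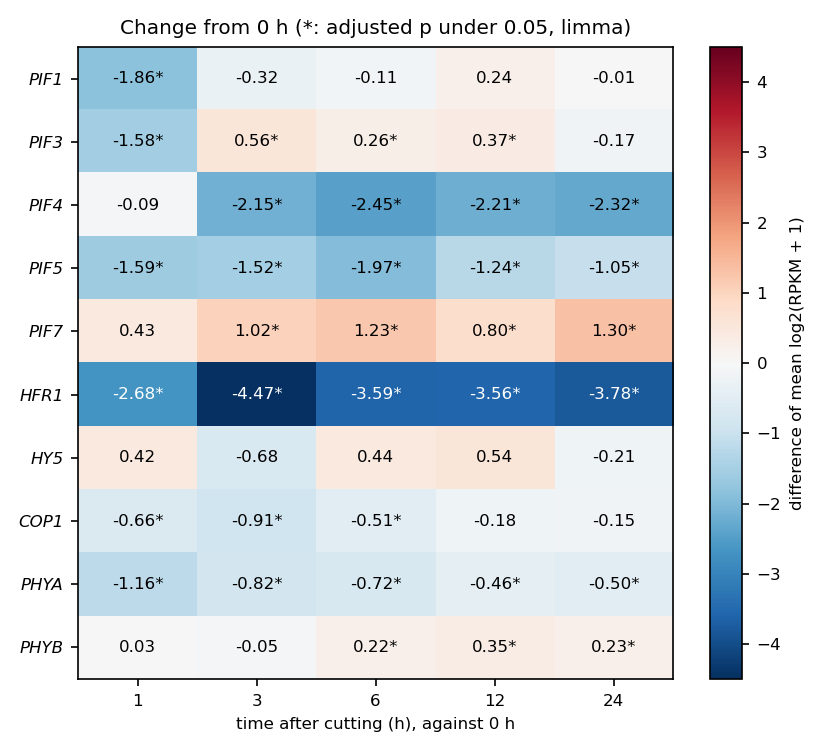
Difference from 0 h in mean log2(RPKM + 1) for each gene (rows) at each later time (columns), with a star where limma's adjusted p is under 0.05. HFR1 is lower at every time, from -2.68 to -4.47, PIF4 is not called at 1 h and is lower by 2.15 or more from 3 h on, and PIF7 is higher from 3 h on.

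PHYA, the light-labile receptor for very weak and far-red light and the chief phytochrome of dark-grown seedlings, fell at 1 h and partly recovered. PHYA (AT1G09570, chr1:3095160-3100819 on the minus strand of TAIR10.1) stood at 60.7, 63.1 and 72.0 RPKM in replicates 1, 2 and 3 at 0 h, and at 24.9, 31.5 and 29.5 RPKM at 1 h. It was at 37.0, 36.5 and 35.5 RPKM at 3 h and at 38.3, 37.4 and 42.3 RPKM at 6 h. Later it reached 48.5, 44.5 and 48.7 RPKM at 12 h and 42.8 and 48.7 RPKM at 24 h. Every 0 h library was above every later one, every 1 h library was below all others, and 12 h and 24 h overlapped. The log2 change from 0 h was -1.16 at 1 h (SE 0.09, limma adjusted p = 1.59e-08) and -0.50 at 24 h (SE 0.10, limma adjusted p = 0.000468), and PHYA was called lower at all 5 times. From 1 h to 3 h it rose by 0.34 (limma adjusted p = 0.00403), a call that was lost with median centring, at 0.17 (adjusted p = 0.127). In that step 60.2% of all genes were called, 38% higher and 22.2% lower, and 4 members rose and 4 fell, with 2 rising under median centring.

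PHYB, the light-stable receptor that dominates in red light, varied within a narrow band. PHYB (AT2G18790, chr2:8139756-8144461 on the plus strand) stood at 25.1, 22.7 and 21.0 RPKM at 0 h, at 24.9, 21.3 and 24.4 RPKM at 1 h and at 20.8, 23.8 and 21.7 RPKM at 3 h. It then stood at 25.4, 27.6 and 27.5 RPKM at 6 h, at 28.2, 30.2 and 29.8 RPKM at 12 h and at 27.1 and 26.8 RPKM at 24 h. The first 3 time points overlapped, and all libraries from 6 h on were above those of the 0 h group. At 12 h the log2 change from 0 h was 0.35 (SE 0.08, limma adjusted p = 0.00138). The smaller rises were 0.22 at 6 h (limma adjusted p = 0.0227) and 0.23 at 24 h (limma adjusted p = 0.0386). The 6 h call was lost without 0 h replicate 2 or 3 or without 6 h replicate 2 or 3, with adjusted p from 0.0547 to 0.103, and the 24 h call was lost in 8 of 26 alternatives, with median centring at a change of 0.11 (adjusted p = 0.297).

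The ratio of PHYA to PHYB, both per length within each library, was 2.87 ± 0.507 at 0 h (SD, n = 3) and 1.23 ± 0.243 at 1 h (SD, n = 3). It was 1.65 ± 0.124 at 3 h, 1.47 ± 0.0990 at 6 h, 1.61 ± 0.126 at 12 h (SD, n = 3 each) and 1.70 ± 0.170 at 24 h (SD, n = 2). PHYA transcript thus remained the more abundant on average at all 6 times, while 1 of the 1 h libraries had a ratio of 0.999.

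The other phytochromes did not share one pattern. PHYD, the closest relative of PHYB and so a gene whose reads may be confused with it, stood at 4.57, 4.56 and 4.15 RPKM at 0 h and at 10.7, 11.5 and 11.2 RPKM at 6 h. It was higher at all 5 times, with a log2 change of 1.16 at 6 h (SE 0.08, limma adjusted p = 2.43e-09). PHYC, a further light-stable receptor, was 8.96 RPKM on average at 0 h and 5.36 RPKM at 1 h, a log2 change of -0.65 (SE 0.09, limma adjusted p = 1.41e-05), and was not called at 12 h or 24 h. PHYE was called once, lower at 1 h by 0.27 (limma adjusted p = 0.0128). FHY1, which carries PHYA into the nucleus, fell from a mean of 18.0 RPKM to 6.61 RPKM at 1 h, by 1.32 on the log2 scale (SE 0.10, limma adjusted p = 1.79e-08), and its homologue FHL fell from 5.44 to 1.86 RPKM at 12 h. Of the 7 genes in this list, 1 rose and 5 fell at 1 h, beside 18.2% and 54.7% of all genes. At 24 h, 1 rose and 2 fell, beside 36.2% and 23.2%.

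PIF genes moved in different directions. The sequences below are the 250 bases upstream of the annotated starts of PIF4 and PIF5, which code for closely related factors, and of PHYB. They are shown because G-boxes, the DNA element that PIFs and HY5 bind, occur in the windows of PIF5 and PHYB and in those of no other member. The G-box letters CACGTG are in capitals, all are written 5′ to 3′ on the gene's strand, and they were read from the RefSeq genome TAIR10.1.
PIF5, chr3:21830838-21831087, minus strand: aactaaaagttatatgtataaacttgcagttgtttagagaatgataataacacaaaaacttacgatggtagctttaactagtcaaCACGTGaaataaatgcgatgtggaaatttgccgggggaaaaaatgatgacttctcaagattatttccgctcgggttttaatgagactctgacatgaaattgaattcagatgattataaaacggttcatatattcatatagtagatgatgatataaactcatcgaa
PIF4, chr2:17885851-17886100, plus strand: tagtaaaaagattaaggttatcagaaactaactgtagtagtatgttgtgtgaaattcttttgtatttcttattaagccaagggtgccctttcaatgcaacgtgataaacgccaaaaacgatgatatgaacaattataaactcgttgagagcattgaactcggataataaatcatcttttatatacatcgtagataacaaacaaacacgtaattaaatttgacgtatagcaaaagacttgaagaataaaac
PHYB, chr2:8139506-8139755, plus strand: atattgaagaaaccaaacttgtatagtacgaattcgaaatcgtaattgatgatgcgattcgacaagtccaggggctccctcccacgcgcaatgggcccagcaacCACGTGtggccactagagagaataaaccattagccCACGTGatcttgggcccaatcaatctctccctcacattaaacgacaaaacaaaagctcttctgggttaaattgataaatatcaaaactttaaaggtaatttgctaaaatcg
The search covered both strands from 250 bases before to 50 bases after each start. PIF5 held 1 G-box, starting 165 bases before the gene start, and PHYB held 2, at 146 and 111 bases before it, so 2 of the 10 members held one, against 7.68% of the windows of 27443 protein-coding genes. The PBE-box, CACATG on either strand, overlapped no G-box in any member and was in the windows of PIF7 and HY5 and in 12.9% of all windows. A match is a run of letters in this window and not a measured binding site.

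PIF1, which holds back seed germination and chlorophyll synthesis in the dark, was lowest at 1 h and rose again by 3 h. PIF1 (AT2G20180, chr2:8704024-8707009, minus strand) stood at 6.90, 7.58 and 6.73 RPKM at 0 h, at 1.83, 0.905 and 1.04 RPKM at 1 h and at 6.00, 5.13 and 5.33 RPKM at 3 h. It was at 7.83, 5.99 and 5.81 RPKM at 6 h, at 9.28, 7.96 and 8.35 RPKM at 12 h and at 6.90 and 7.09 RPKM at 24 h. The 1 h libraries were apart from all others and the 12 h libraries were above all others. The 0 h mean was 5.62 times the 1 h mean. On the log2(RPKM + 1) scale, which understates changes at such low values, the change was -1.86 (SE 0.14, limma adjusted p = 1.23e-08). The rise from 1 h to 3 h was 1.54 (limma adjusted p = 1.46e-07) on that scale. At 3 h the change from 0 h was -0.32 and missed the threshold (limma adjusted p = 0.0577). PIF1 shares 334 exonic bases with a gene on the opposite strand, AT2G20170, whose highest value in any library was 0.477 RPKM.

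PIF3, a main factor of dark growth that acts with the other PIFs in keeping seedlings etiolated, dipped with PIF1 and overshot. PIF3 (AT1G09530, chr1:3075768-3079654, plus strand) stood at 28.6, 27.99 and 22.6 RPKM at 0 h, at 8.35, 8.08 and 8.001 RPKM at 1 h and at 43.1, 42.5 and 32.7 RPKM at 3 h. It was at 32.9, 30.7 and 31.5 RPKM at 6 h, at 34.7, 35.1 and 32.7 RPKM at 12 h and at 21.5 and 25.2 RPKM at 24 h. The 1 h libraries lay below all others, and those of 3, 6 and 12 h lay above all of 0 h and 24 h. The log2 change from 0 h was -1.58 at 1 h (SE 0.10, limma adjusted p = 2.49e-09) and 0.56 at 3 h (SE 0.10, limma adjusted p = 0.000198). The step from 1 h to 3 h was 2.13 (limma adjusted p = 1.65e-10). From 12 h to 24 h it fell by 0.54 (limma adjusted p = 0.00447), the one call among the 10 members in a step where 18.5% of all genes were called, 10.3% higher and 8.11% lower. The rise at 6 h, 0.26 (limma adjusted p = 0.0369), was not called in 5 of 26 alternatives, at 0.16 when 0 h replicate 3 was left out (adjusted p = 0.190), and the fall from 12 h to 24 h was not called without 24 h replicate 1, at -0.42 (adjusted p = 0.0876).

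PIF4, which drives elongation in warmth and shade, held its level for 1 h and then fell. PIF4 (AT2G43010, chr2:17886101-17889087, plus strand) stood at 12.3, 16.9 and 15.9 RPKM at 0 h, at 13.7, 12.0 and 16.5 RPKM at 1 h and at 2.41, 2.98 and 2.40 RPKM at 3 h. It was at 1.82, 1.60 and 2.34 RPKM at 6 h, at 2.54, 2.40 and 2.40 RPKM at 12 h and at 1.75 and 2.72 RPKM at 24 h. The libraries of 0 h and 1 h overlapped, and every later library was far below them. The log2 change at 1 h was -0.09 (SE 0.15, limma adjusted p = 0.604) and its sign turned with the scaling, to 0.17 with median centring. At 3 h it was -2.15 (SE 0.15, limma adjusted p = 4.85e-09) and at 24 h -2.32 (SE 0.17, limma adjusted p = 1.84e-08). No step after 3 h was called for PIF4.

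PIF5, the close relative of PIF4 with a role in dark and shade growth, fell earlier, by 1 h. PIF5 (AT3G59060, chr3:21827905-21830837, minus strand) stood at 8.74, 9.83 and 8.90 RPKM at 0 h, at 2.44, 2.85 and 1.87 RPKM at 1 h and at 2.41, 3.19 and 2.09 RPKM at 3 h. It was at 1.66, 1.42 and 1.73 RPKM at 6 h, at 4.47, 3.07 and 2.58 RPKM at 12 h and at 3.53 and 4.31 RPKM at 24 h. All 0 h libraries were above all later ones, 1 h and 3 h overlapped, and 6 h was lowest. The log2 change from 0 h was -1.59 at 1 h (SE 0.16, limma adjusted p = 4.22e-07), -1.97 at 6 h (limma adjusted p = 3.03e-08) and -1.05 at 24 h (SE 0.18, limma adjusted p = 0.000140). From 6 h to 12 h it rose by 0.73 (limma adjusted p = 0.00172), where 3 members rose and 0 fell beside 48.6% of all genes, 32.1% higher and 16.5% lower. The rise was 0.56 without 12 h replicate 1 (adjusted p = 0.0106). The fall from 3 h to 6 h, 0.44 with an adjusted p of 0.0469 in limma, was not called in 14 of 26 alternatives, among them no filter, voom and leaving out libraries of other times, with adjusted p from 0.0521 to 0.195.

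PIF7, a factor of shade and warmth responses, was the least abundant member at 0 h and rose from 3 h on. PIF7 (AT5G61270, chr5:24638491-24640765, minus strand) stood at 0.623, 0.954 and 0.433 RPKM at 0 h, at 2.03, 0.960 and 0.878 RPKM at 1 h and at 2.61, 2.34 and 2.17 RPKM at 3 h. It was at 1.90, 2.95 and 4.10 RPKM at 6 h, at 2.25, 1.82 and 1.65 RPKM at 12 h and at 3.41 and 2.78 RPKM at 24 h. The 0 h and 1 h libraries overlapped, and all libraries from 3 h on were above all of 0 h. The log2 change, which on the log2(RPKM + 1) scale understates the change of so low a gene, was 1.02 at 3 h (SE 0.21, limma adjusted p = 0.000461) and 1.303 at 24 h (SE 0.24, limma adjusted p = 0.000199), and the 24 h mean was 4.62 times the 0 h mean. At 1 h it was 0.43 (limma adjusted p = 0.0764), and the call was gained with a pseudocount of 0.1, at 0.81 (adjusted p = 0.0381). PIF7 shares 318 exonic bases with AT5G61260 on the opposite strand, and whether the reads were counted by strand was not given in the sources used here. That neighbour stood at 7.44 to 11.5 RPKM at 0 h and at 2.82 to 5.29 RPKM in all later libraries. The part of reads from the shared bases in the values of PIF7 was not tested.

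Summed over the 5 PIF genes, transcript abundance was 58.3 ± 4.47 RPKM at 0 h (SD, n = 3), 27.1 ± 2.03 RPKM at 1 h (SD, n = 3) and 52.5 ± 6.69 RPKM at 3 h (SD, n = 3). It was 44.7 ± 1.82 RPKM at 6 h and 50.4 ± 2.79 RPKM at 12 h (SD, n = 3 each). The sum thus came near its start at 3 h, where its make-up had changed. All libraries of 6, 12 and 24 h were below all of 0 h in this sum. PIF3 made up 45.2% ± 4.37 of it at 0 h, 30.1% ± 2.22 at 1 h and 75.0% ± 1.62 at 3 h (SD, n = 3 each). PIF4 made up 25.8% ± 3.89 at 0 h, 51.7% ± 5.76 at 1 h and 4.98% ± 0.620 at 3 h (SD, n = 3 each). At 24 h the sum was 39.6 ± 3.56 RPKM and PIF3 made up 58.9% ± 1.35 of it (SD, n = 2). These shares are on the per-length scale and carry no test. They are shares among the 5 members and leave out PIL2 and UNE10, listed with the other PIF family and related bHLH genes. PIL2 had means of 15.2 RPKM at 0 h, 10.6 RPKM at 1 h, 13.8 RPKM at 3 h and 9.36 RPKM at 24 h. UNE10 had a mean of 2.52 RPKM at 0 h.

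**Figure D3:**
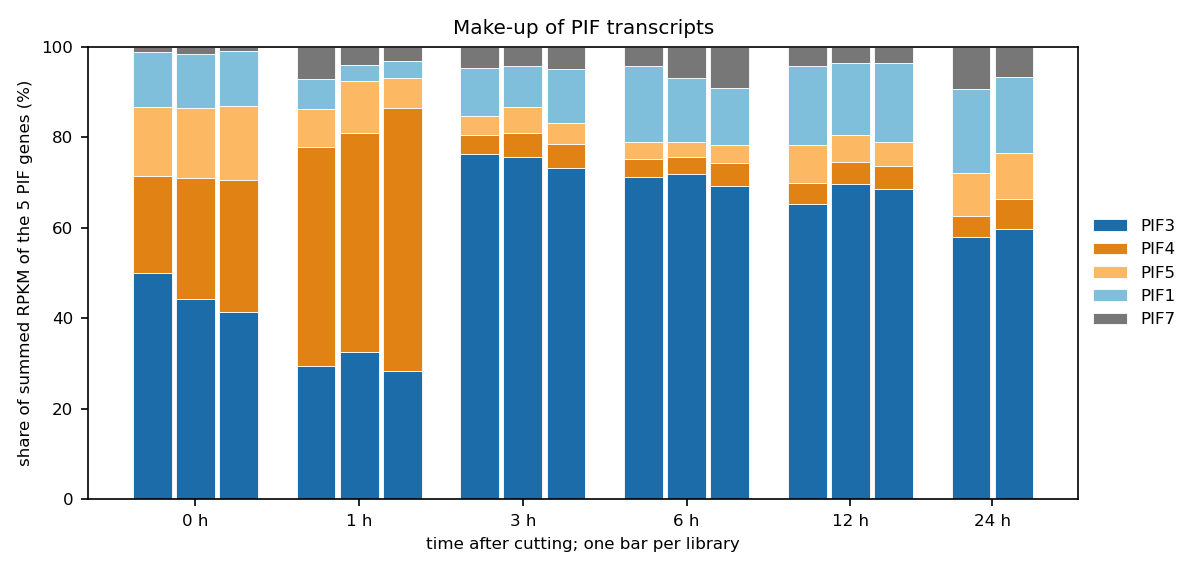
Share of the summed RPKM of the 5 PIF genes that each contributes (vertical axis, percent) in each of the 17 libraries, grouped by hours after cutting. Among these 5, PIF4 is the largest share at 1 h, with a mean of 51.7%, and PIF3 the largest at all other times, with a mean of 75.0% at 3 h. PIL2 and UNE10 are not included.

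PIL1, a PIF-related factor and a known target of PIFs in shade, went from 8.56, 4.09 and 5.50 RPKM at 0 h to 0.751, 0.502 and 0.839 RPKM at 6 h. Its log2 change was -2.01 at 6 h (SE 0.23, limma adjusted p = 1.39e-06), and at 24 h it was not called, at a mean of 4.41 RPKM. SPT, a bHLH factor of germination and carpel growth, rose from a mean of 3.21 RPKM to 14.7 RPKM at 12 h, by 1.90 on the log2 scale (SE 0.14, limma adjusted p = 9.79e-09). In this list of 5 related bHLH genes, 0 rose and 3 fell at 1 h, beside 18.2% and 54.7% of all genes. At 24 h, 2 rose and 2 fell, beside 36.2% and 23.2%.

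HFR1, a bHLH protein that cannot bind DNA itself and ties up PIFs in inactive pairs, showed the widest change of the 10 members. HFR1 (AT1G02340, chr1:465616-467880, minus strand) stood at 60.2, 64.4 and 120.2 RPKM at 0 h, at 7.86, 13.2 and 13.6 RPKM at 1 h and at 2.56, 3.25 and 1.93 RPKM at 3 h. It was at 6.70, 4.08 and 6.13 RPKM at 6 h, at 5.17, 5.69 and 6.10 RPKM at 12 h and at 4.75 and 4.69 RPKM at 24 h. All 0 h libraries were far above every later one, the 1 h libraries were above the rest, and the 3 h libraries were below all others.

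The mean of HFR1 at 0 h was 7.06 times that at 1 h, 31.6 times that at 3 h and 17.3 times that at 24 h. On the log2(RPKM + 1) scale the change was -2.68 at 1 h (SE 0.25, limma adjusted p = 1.91e-07), -4.47 at 3 h (SE 0.25, limma adjusted p = 4.75e-10) and -3.78 at 24 h (SE 0.28, limma adjusted p = 2.67e-08). Without 0 h replicate 3, in which HFR1 was highest, the 1 h change was -2.37 and the 3 h change -4.16, and all 5 comparisons with 0 h were still called. A rise of 0.88 from 3 h to 6 h was called (limma adjusted p = 0.0126), in a step where 4 members rose and 2 fell beside 33.7% of all genes, 19.2% higher and 14.4% lower. It was not called without 3 h replicate 3, at 0.75 (adjusted p = 0.0571), without 6 h replicate 1, at 0.77 (adjusted p = 0.0557), or with the voom fit to reads recovered from the RPKM values, at 1.11 (adjusted p = 0.197). The epidermal marker sums, given above, were also highest at 0 h, and their part in the fall of HFR1 was not tested.

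In each library at 0 h HFR1 was at least as abundant per length as the 5 member PIF genes together, with a ratio of 1.42 ± 0.674 (SD, n = 3). PIL2, at 15.3, 14.2 and 16.2 RPKM at 0 h, is not in that sum, so the statement holds for these 5 genes only. The ratio to the 5 went to 0.430 ± 0.135 at 1 h, then to 0.0488 ± 0.00799 at 3 h and back to 0.125 ± 0.0263 at 6 h (SD, n = 3 each). It stayed at 0.113 ± 0.0155 at 12 h (SD, n = 3) and 0.120 ± 0.0118 at 24 h (SD, n = 2). Other genes for inhibitors of PIFs, the HLH proteins and the gibberellin-regulated DELLA repressors, together with HLH genes that act against those inhibitors, numbered 10 tested of 12 listed. Of these, 1 rose and 5 fell at 1 h, beside 18.2% and 54.7% of all genes. At 24 h, 4 rose and 5 fell, beside 36.2% and 23.2%. RGL3, a DELLA gene, stood at 31.4, 27.9 and 37.5 RPKM at 1 h against 2.82, 3.29 and 2.46 RPKM at 0 h, a log2 change of 3.10 (SE 0.11, limma adjusted p = 1.30e-12), and stood at a mean of 2.64 RPKM at 3 h. PRE1, an HLH gene that promotes elongation, stood at 10.4, 7.61 and 0.181 RPKM at 0 h, low in the library that was also low in CASP1, and was at 0 in the 3 libraries of 12 h.

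HY5, the bZIP factor that promotes light development, gave the least settled result of the 10. HY5 (AT5G11260, chr5:3593335-3595073, minus strand) stood at 10.7, 34.9 and 7.90 RPKM at 0 h, at 23.8, 19.9 and 16.5 RPKM at 1 h and at 8.52, 8.04 and 9.61 RPKM at 3 h. It was at 17.9, 28.5 and 15.8 RPKM at 6 h, at 18.4, 25.3 and 21.5 RPKM at 12 h and at 14.1 and 10.96 RPKM at 24 h. The 0 h libraries spanned the values of all other times, and those of 3 h lay below all of 1, 6, 12 and 24 h. No comparison of HY5 with 0 h was called, with a log2 change of 0.42 at 1 h (SE 0.38, limma adjusted p = 0.329). The steps were called, a fall of 1.10 from 1 h to 3 h (limma adjusted p = 0.0221) and a rise of 1.12 from 3 h to 6 h (limma adjusted p = 0.0361), but both stood near the threshold. The fall lost its call in 4 of 26 alternatives, with adjusted p up to 0.0736 without 1 h replicate 1, and the rise in 7 of 26, with adjusted p up to 0.135 without 6 h replicate 2.

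The comparisons with 0 h turned on single 0 h libraries. Without replicate 2 HY5 was higher at 1 h by 1.03 (adjusted p = 0.000898), at 6 h by 1.04 (adjusted p = 0.000854) and at 12 h by 1.14 (adjusted p = 0.000496), while 24 h was not called, at 0.40 (adjusted p = 0.180). Without replicate 3 at 0 h it was lower at 3 h, by 1.08 (adjusted p = 0.0183). In replicate 2 at 0 h, BBX28 stood at 38.5 RPKM against 22.8 and 23.7 in the other 0 h libraries, and BBX22 at 20.1 RPKM against 12.995 and 13.4. Both are B-box genes, a family with proteins that act with or against HY5, and why they stood high together in that library was not tested.

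HYH, the closest homologue of HY5, rose at every time. HYH stood at 1.37, 2.58 and 1.55 RPKM at 0 h and at 18.7, 24.5 and 17.1 RPKM at 6 h, and no later library overlapped those of 0 h. Its log2 change was 2.01 at 1 h (SE 0.21, limma adjusted p = 6.77e-07) and 2.91 at 6 h (SE 0.21, limma adjusted p = 8.26e-09). BBX25, a B-box gene whose protein interferes with HY5, rose from a mean of 2.70 RPKM to 16.2 RPKM at 3 h, by 2.33 (SE 0.28, limma adjusted p = 2.47e-06). Of the 7 HY5 relatives and B-box genes tested of 10 listed, 4 rose and 2 fell at 3 h. The shares of all genes there were 27.6% and 39.3%. At 24 h, 3 rose and 2 fell, beside 36.2% and 23.2%.

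COP1, the ligase that marks HY5 and HFR1 for degradation in the dark, fell at 1 h and 3 h and then returned toward its 0 h level. COP1 (AT2G32950, chr2:13977881-13983609, plus strand) stood at 16.5, 15.7 and 14.4 RPKM at 0 h, at 8.996, 9.83 and 9.68 RPKM at 1 h and at 6.87, 8.24 and 8.31 RPKM at 3 h. It was at 11.3, 11.04 and 9.66 RPKM at 6 h, at 14.5, 14.3 and 12.1 RPKM at 12 h and at 13.4 and 14.4 RPKM at 24 h. Libraries of 1, 3 and 6 h were all below those of 0 h, and the 12 h libraries overlapped 0 h. The log2 change was -0.66 at 1 h (SE 0.09, limma adjusted p = 1.58e-05) and -0.91 at 3 h (limma adjusted p = 3.79e-07). At 12 h it was -0.18 (limma adjusted p = 0.111), and it was called lower with median centring, at -0.25 (adjusted p = 0.0385).

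Genes for the partners of COP1 did not all follow it. SPA1, which forms the active complex with COP1, stood at 7.55, 11.6 and 8.005 RPKM at 0 h and at 33.7, 33.0 and 35.5 RPKM at 1 h, a log2 change of 1.83 (SE 0.11, limma adjusted p = 9.56e-10). Its mean was 19.8 RPKM at 3 h and 9.33 RPKM at 24 h, where it was no longer called (limma adjusted p = 0.691). DET1, a component of a related ligase complex, fell from a mean of 18.8 RPKM to 8.90 RPKM at 1 h, by 1.00 (SE 0.09, limma adjusted p = 6.61e-08). Of the 11 genes for COP, DET, SPA and COP9 signalosome proteins, 1 rose and 9 fell at 1 h. The shares of all genes there were 18.2% and 54.7%. At 24 h, 3 rose and 3 fell, beside 36.2% and 23.2%. Per length, HY5 stood to COP1 in a ratio of 1.14 ± 0.935 at 0 h, then 2.13 ± 0.483 at 1 h, then 1.12 ± 0.135 at 3 h (SD, n = 3 each), and the 0 h libraries spanned all later means.

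**Figure D4:**
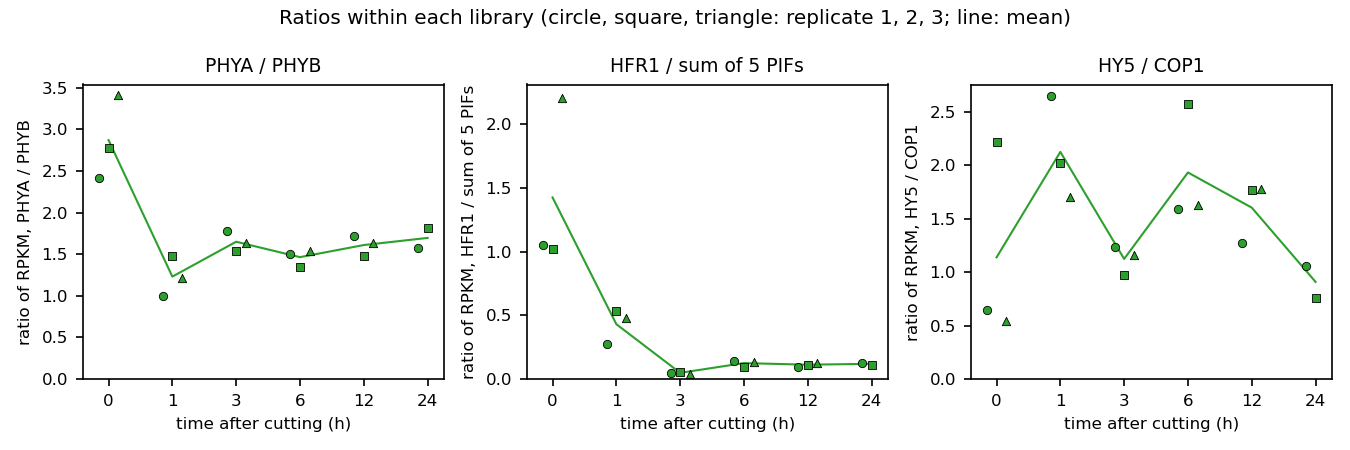
Ratios of RPKM within each library (vertical axes, from 0) against hours after cutting, for PHYA to PHYB, HFR1 to the sum of 5 PIF genes, and HY5 to COP1. Symbols are replicates and lines join means: HFR1 to PIFs goes from a mean of 1.42 at 0 h to 0.0488 at 3 h, and HY5 to COP1 has its widest spread at 0 h.

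The order of the members by level changed with time. At 0 h HFR1 and PHYA led and their libraries overlapped, followed by PIF3, PHYB, HY5, COP1 and PIF4, of which each overlapped the next, and then by PIF5, PIF1 and PIF7, which were apart. At 3 h PIF3 and PHYA led and overlapped, and PIF4, HFR1, PIF5 and PIF7 were last, each overlapping the next, at means of 2.60, 2.58, 2.56 and 2.37 RPKM. At 12 h PHYA led, PIF3 and PHYB followed, and no neighbours in the order overlapped.

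Over the 17 libraries, the highest correlations between members on the log2(RPKM + 1) scale were 0.881 between PIF1 and PIF3, 0.800 between PIF4 and HFR1 and 0.797 between PIF5 and PHYA. The lowest were -0.826 between PIF7 and HFR1 and -0.818 between PIF4 and PIF7. Libraries of a time point share that time, so these values are descriptions. Among the other tested genes, the pattern most like HFR1 was that of AT1G15740, with Pearson's r of 0.993, followed by RD19 at 0.988, a drought-induced protease gene. For PIF4 it was AT5G66050 at 0.980, for PIF3 AT5G09620 at 0.970, and for PIF1 CIP4, a gene for a COP1-interacting protein, at 0.976.

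The wider pathway was drawn from 11 lists of 81 genes, of which 72 were tested. Of these, 9 rose and 43 fell at 1 h, beside 18.2% and 54.7% of all genes. The median log2 change of the 72 was -0.43, beside the all-gene median of -0.36. At 3 h, 17 rose and 33 fell, beside 27.6% and 39.3% of all genes. At 6 h, 15 rose and 35 fell, beside 30.2% and 37.1%. At 12 h, 22 rose and 26 fell, beside 34.4% and 27.8%. At 24 h, 18 rose and 28 fell, beside 36.2% and 23.2%. The medians from 3 h on were -0.22, -0.26, 0.05 and -0.17, where those of all genes were -0.12, -0.07, 0.06 and 0.14.

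**Figure D5:**
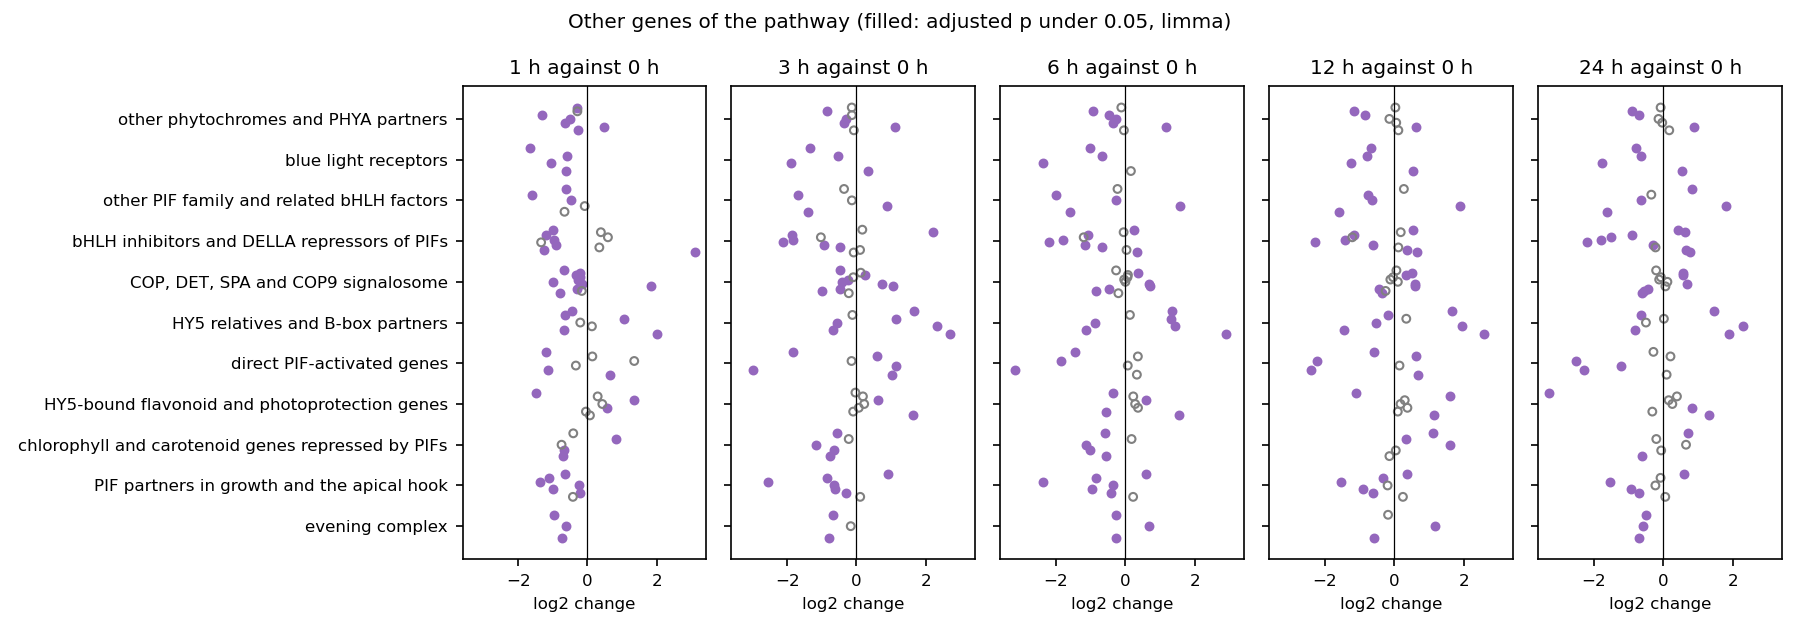
Change from 0 h in mean log2(RPKM + 1) (horizontal axes) for the 72 tested genes of the 11 pathway lists (rows), with 1 panel for each later time and filled points where limma's adjusted p is under 0.05. At 1 h most filled points lie left of 0, 43 against 9, where 54.7% of all genes fell and 18.2% rose. HYH in the HY5 row is the point furthest to the right at 6 h, at 2.91.

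Among genes that PIFs are known to act on, XTH15, a cell wall enzyme, stood at 27.1, 24.4 and 15.3 RPKM at 0 h and at 1.08, 2.28 and 1.32 RPKM at 6 h, a log2 change of -3.17 (SE 0.39, limma adjusted p = 4.11e-06). IAA19, an auxin response gene, had a 24 h change of -2.53 (SE 0.80, limma adjusted p = 0.0151), with 0 h libraries at 33.7, 36.1 and 1.84 RPKM. In this list of 6 tested PIF-activated genes, 3 rose and 2 fell at 3 h, beside 27.6% and 39.3% of all genes. At 6 h, 0 rose and 3 fell, beside 30.2% and 37.1%, and at 24 h, 0 rose and 3 fell, beside 36.2% and 23.2%. Genes of chlorophyll and carotenoid synthesis, which PIFs hold back in the dark, numbered 5. Of these, 0 rose and 4 fell at 6 h, beside 30.2% and 37.1% of all genes. At 12 h, 3 rose and 0 fell, beside 34.4% and 27.8%, and at 24 h, 1 rose and 1 fell, beside 36.2% and 23.2%. PORB, an enzyme of chlorophyll synthesis, reached a mean of 22.8 RPKM at 12 h from 5.81 RPKM at 0 h (log2 change 1.62, SE 0.36, limma adjusted p = 0.00123), with 42.1 RPKM in the 12 h library that was high in RBCS1A. GUN5, a subunit of magnesium chelatase, went from 2.68 to 7.20 RPKM at 12 h (log2 change 1.13, limma adjusted p = 0.000428), with 10.8 RPKM in that same library against 4.81 and 6.00 in the others.

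Of the 7 growth partners of the PIFs, 6 fell at 1 h, where 54.7% of all genes fell, and 5 fell at 3 h, where 39.3% did. BES1, a brassinosteroid factor that acts together with PIFs, went from a mean of 138.4 RPKM to 22.9 RPKM at 3 h, by -2.54 (SE 0.11, limma adjusted p = 1.70e-11), and the auxin response factor gene ARF8 from 15.9 to 6.82 RPKM at 1 h. Among the HY5-bound genes, 7 tested of 8 listed, CHI of flavonoid synthesis fell from 22.5 to 1.42 RPKM at 24 h (log2 change -3.28, limma adjusted p = 3.50e-10). NIA2, a nitrate reductase gene, rose from 192.8 to 593.6 RPKM at 3 h (log2 change 1.64, limma adjusted p = 1.51e-09). In that list 2 rose and 1 fell at 24 h, beside 36.2% and 23.2% of all genes.

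Blue light receptor genes also fell at 1 h. CRY1, a cryptochrome, stood at 32.3, 32.3 and 35.6 RPKM at 0 h and at 8.48, 11.4 and 10.2 RPKM at 1 h, a log2 change of -1.65 (SE 0.10, limma adjusted p = 7.81e-10), and was lower at all 5 times. PHOT1, the phototropism receptor, stood at 24.1, 25.9 and 24.7 RPKM at 0 h and at 4.11, 4.13 and 3.87 RPKM at 6 h, a log2 change of -2.36 (SE 0.10, limma adjusted p = 1.50e-11). All 4 genes of this list fell at 1 h, beside 54.7% of all genes, and 3 fell and 1 rose at 24 h, beside 23.2% and 36.2%. In the evening complex, which represses PIF4 and PIF5 transcription at dusk, ELF3 fell from 34.6 to 17.1 RPKM at 1 h (log2 change -0.97, limma adjusted p = 5.01e-07) and ELF4 rose from 14.02 to 32.2 RPKM at 12 h (log2 change 1.19, limma adjusted p = 0.000145). All 3 of its genes fell at 1 h and at 24 h, against the same shares of all genes.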

How the data were processed

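RNA-seq of cut, dark-kept Arabidopsis hypocotyls was analysed from the table the authors deposited, in 17 libraries at 6 time points. Its values are RPKM made by the authors, a unit read from the values because the table's header names none. The genome was TAIR 10, per the submitters' processing notes, and the kit marks strand, per the labels' protocols. The aligner, the counter and its strand setting were not given in the sources used here. All columns were mapped to a sample. Low RPKM steps gave whole reads, within 0.001, for all 24834 genes above 0, from which depth was inferred.

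Genes whose RPKM reached 1 in 2 or more libraries were tested on log2(RPKM + 1) with limma 3.58.1 (trend, robust) in R 4.3.3, all 17 libraries in 1 fit with time as a factor. P-values were two-sided, adjusted by Benjamini-Hochberg over 19656 genes and called under 0.05. The fit was checked on simulated data in which few genes changed, all upward and only at 1 h. That check does not cover a shift of most genes such as the one measured here. Labels do not say that replicates came from separate cultures, so p-values may measure technical spread. Members and lists were chosen with earlier results of these data known. Named in each list are the 2 called genes of largest change, partners of members, and per member the genes with the most similar pattern. Alternatives were other pseudocounts, filters, scalings, a replicate block, plain limma, each library left out, and voom on recovered reads, the last chosen after seeing the data. Counting intervals are not given. Promoter windows came from the RefSeq genome TAIR10.1.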

Additional observations from a re-analysis of the deposited data

How the results depend on the processing

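Of 801 alternative values for the members other than left-out libraries, 751 kept direction and call, 18 lost a call, 17 gained one and 15 changed sign. Of 1530 with 1 library left out, 1447 kept both, 52 lost a call, 14 gained one and 17 changed sign. No sign change touched a value called in either fit, and their causes were not tested. With median centring the sign turned for PIF4 at 1 h (0.17), PHYB at 3 h (0.0418), PIF5 from 1 h to 3 h (-0.10), HFR1 (-0.11), PIF3 (-0.0294), HY5 (-0.0348) and PHYB (-0.0086) from 6 h to 12 h, and COP1 from 12 h to 24 h (-0.0160). With quantile normalization it turned for PIF1 at 6 h (0.0043), PIF4 at 1 h (0.10), PIF4 (-0.0048) and HFR1 (-0.19) from 6 h to 12 h, PIF5 from 1 h to 3 h (-0.0173), and COP1 from 12 h to 24 h (-0.0034).

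The number of members higher at 1 h became 1 with a pseudocount of 0.1 or quantile normalization and 2 with median centring. At 3 h it became 1 with an RPKM filter of 5, which drops PIF7, and at 24 h 1 with that filter, median centring, quantile normalization or limma without trend and robust. The number higher became 2 from 1 h to 3 h and 1 from 6 h to 12 h with median centring, and 2 from 3 h to 6 h with voom on recovered reads, added after seeing the data. The number lower from 3 h to 6 h became 0 with no filter and 1 with plain limma or voom, and from 6 h to 12 h 1 with median centring or quantile normalization. With 1 library left out, numbers higher at 1, 3, 6, 12 and 24 h ranged over 0 to 2, 2 to 2, 1 to 3, 3 to 4 and 1 to 2, and numbers lower over 6 to 6, 5 to 6, 5 to 5, 4 to 4 and 4 to 4. In the steps from 1 h to 3 h, 3 h to 6 h, 6 h to 12 h and 12 h to 24 h, numbers higher ranged over 3 to 4, 2 to 4, 2 to 4 and 0 to 0, and numbers lower over 2 to 4, 0 to 2, 0 to 1 and 0 to 2. Ranges that crossed 0 were, against 0 h, PIF4 (-0.22 to 0.0101) and PHYB (-0.0256 to 0.10) at 1 h, PHYB at 3 h (-0.11 to 0.0108), and PIF1 (-0.0429 to 0.0320) and HY5 (-0.61 to 0.40) at 24 h. In the steps they were PIF5 from 1 h to 3 h (-0.0497 to 0.17), HFR1 (-0.16 to 0.14) and HY5 (-0.0655 to 0.34) from 6 h to 12 h, and PIF4 (-0.33 to 0.11), COP1 (-0.0506 to 0.0777) and PHYA (-0.14 to 0.0428) from 12 h to 24 h. Over all genes at 1 h, 3573 rose and 10755 fell, and with median centring 4909 rose and 6673 fell.

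Replicate numbers were not taken as a pairing in the fit reported above. Deviations of same-numbered libraries correlated at -0.173 to 0.343 over 40 pairs (median 0.0733, 16 over 0.1). Those of differently numbered libraries correlated at -0.311 to 0.197 over 80 pairs (median -0.0454, 12 over 0.1). Same-numbered libraries thus deviated together more often, and whether they shared a batch was not tested. With a replicate block the number of members higher at 24 h became 1, since PHYB was no longer called (0.22, adjusted p = 0.0584), PIF1 was called at 3 h (-0.32, adjusted p = 0.0326) and from 6 h to 12 h (0.35, adjusted p = 0.0292), and the COP1 step from 12 h to 24 h was -0.00032.

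Depth limits PIF7 most, at 5 to 59 reads a library, and 24 h rests on 2 libraries. Each comparison with 0 h uses the same 3 libraries.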
